A study of Mus musculus with 21 samples.

Results

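The NRF2 antioxidant response genes Nfe2l2, Hmox1, Nqo1, Gclc, Gclm, Srxn1, Txnrd1, Slc7a11, Sod2 and Prdx6 were followed in mouse quadriceps muscle after exhaustive exercise. They were chosen by symbol, and all 10 were found among the 53738 gene symbols of the expression table. Levels are in TPM, transcript abundance corrected for transcript length and scaled to a common total in every library. Of the 10 genes, 9 reached a mean of 1 TPM over all libraries and were tested, with 11819 genes tested in all. Slc7a11 lay below that level and is described by its values only. Bulk RNA-seq gave 21 libraries from C57/Bl6 wild-type male adult mice, in 7 groups of 3. Sedentary mice were the baseline, without training or the bout. Untrained mice ran a treadmill bout to exhaustion without earlier training and were sacrificed 0 h, 6 h or 72 h later. The paper describes 3 days of treadmill acclimatization before its performance tests, without naming groups. Trained mice had 12 weeks of voluntary wheel running before a bout on the same protocol and were sacrificed at the same times. The bout lasted until exhaustion, and the paper reports that trained mice performed better in such tests. The work done in the bout can therefore differ between trained and untrained mice. The design holds no trained group at rest, so training and the bout cannot be told apart in the comparisons of trained with sedentary muscle.

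Replicate 1 of untrained muscle at 0 h and replicate 1 of trained muscle at 0 h have the same value for every gene, which leaves 20 distinct libraries. The 0 h differences of single genes and the counts of calls at 0 h are therefore given with this library in both groups and again without it. All groups share an estimate of the spread, so this library also enters the adjusted p at 6 h and 72 h. Counts of the 9 tested genes called at 6 h and 72 h were the same without it. TPM keep no sequencing depth, so the depth is unknown, and the precision rests on 3 libraries a group. Nothing in the labels says whether the 3 libraries come from 3 animals, and the p-values measure the spread between libraries. The muscle label was checked on the fibre genes Acta1, Ckm, Myh4, Mylpf, Tnnt3 and Tnni2, which summed to between 82753 and 110091 TPM per library. The mitochondrial genome accounted for 37.7% to 48.0% of each library's TPM. In bulk tissue, fewer cells of a type and less RNA per cell cannot be told apart.

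NRF2, the protein made from Nfe2l2, is a transcription factor that is held in the cytoplasm and sent for degradation by KEAP1. When oxidants or electrophiles modify KEAP1, NRF2 accumulates, pairs with a small MAF protein and binds antioxidant response elements (ARE) near genes of glutathione synthesis, the thioredoxin system, quinone reduction and haem breakdown. NRF2 is therefore mostly controlled as a protein, which RNA-seq does not measure.

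The ARE core was searched as TGACNNNGC on both strands in promoter windows from RefSeq that run from 250 bases before to 50 bases after each start. Of the 10 genes, 7 (all but Hmox1, Gclc and Prdx6) had a window, with 3 windows for Txnrd1. The windows are RefSeq's for GRCm38.p6 and were placed on GRCm39 by an exact match of their sequence. The core was found in Nfe2l2, Gclm, Srxn1 and 1 of 3 windows of Txnrd1, and not in Nqo1, Slc7a11 or Sod2. Over all promoters, 14% of 27025 genes held it in at least 1 window, and 12.4% of 32851 windows. None of the 4 sites overlaps the letters of an AP-1 motif. They are shown with 8 flanking bases, 5′ to 3′ on the strand that carries the motif, with the motif in capitals.
Nfe2l2, 240 bases before the start, chr2:75535239-75535247: agcccaccTGACTCCGCcatgcccc
Gclm, 134 bases before the start on the opposite strand, chr3:122039072-122039080: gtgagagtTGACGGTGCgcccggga
Srxn1, 28 bases after the start on the opposite strand, chr2:151947472-151947480: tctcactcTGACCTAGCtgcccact
Txnrd1, 92 bases before an internal start on the opposite strand, chr10:82694948-82694956: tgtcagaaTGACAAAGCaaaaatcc

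The Srxn1 window was also the only one of the 9 windows searched for the 10 genes that held the AP-1 motif TGACTCA, which was present in it at 2 places. AP-1 is the dimer of FOS and JUN proteins, and its motif resembles the ARE. The motif was found in 5.20% of all windows. At the site nearer to the start the AP-1 letters are followed by GC, a longer motif searched as TGANTCAGC after this window had been seen and present in 1.19% of all windows. The letters of that site match the searched ARE core at every fixed base except its C, which is G there. The search for the core therefore did not count that site, and ARE and AP-1 letters cannot be told apart at it. The sites are shown because Srxn1 had the widest range of levels of the 10 genes.
Srxn1, 45 bases before the start, chr2:151947399-151947407: attcacccTGAGTCAGCggccgggc
Srxn1, 102 bases before the start on the opposite strand, chr2:151947342-151947348: cagcgtggTGACTCAggccctcc

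In sedentary muscle the levels of the 10 genes spanned more than 2 orders of magnitude. Sod2, the superoxide dismutase of mitochondria, was highest at 109 ± 8.59 TPM (SD, n = 3, as for all values here). It was followed by Prdx6, a peroxiredoxin that reduces lipid peroxides, at 48.8 ± 2.26 TPM. Gclm, the modifier subunit of the enzyme that starts glutathione synthesis, had a mean of 18.6 ± 15.7 TPM, and its libraries overlapped those of Txnrd1, the cytosolic thioredoxin reductase, at 15.9 ± 1.05 TPM. Nqo1, a quinone reductase, lay at 11.4 ± 1.15 TPM. Nfe2l2 at 7.26 ± 0.966 TPM and Srxn1 at 6.38 ± 2.04 TPM overlapped each other. So did Gclc, the catalytic subunit that pairs with Gclm, at 2.76 ± 0.283 TPM and Hmox1, the inducible haem oxygenase, at 2.46 ± 0.159 TPM. Slc7a11, the cystine importer, was lowest at 0.311 ± 0.0349 TPM.

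**Figure D1:**
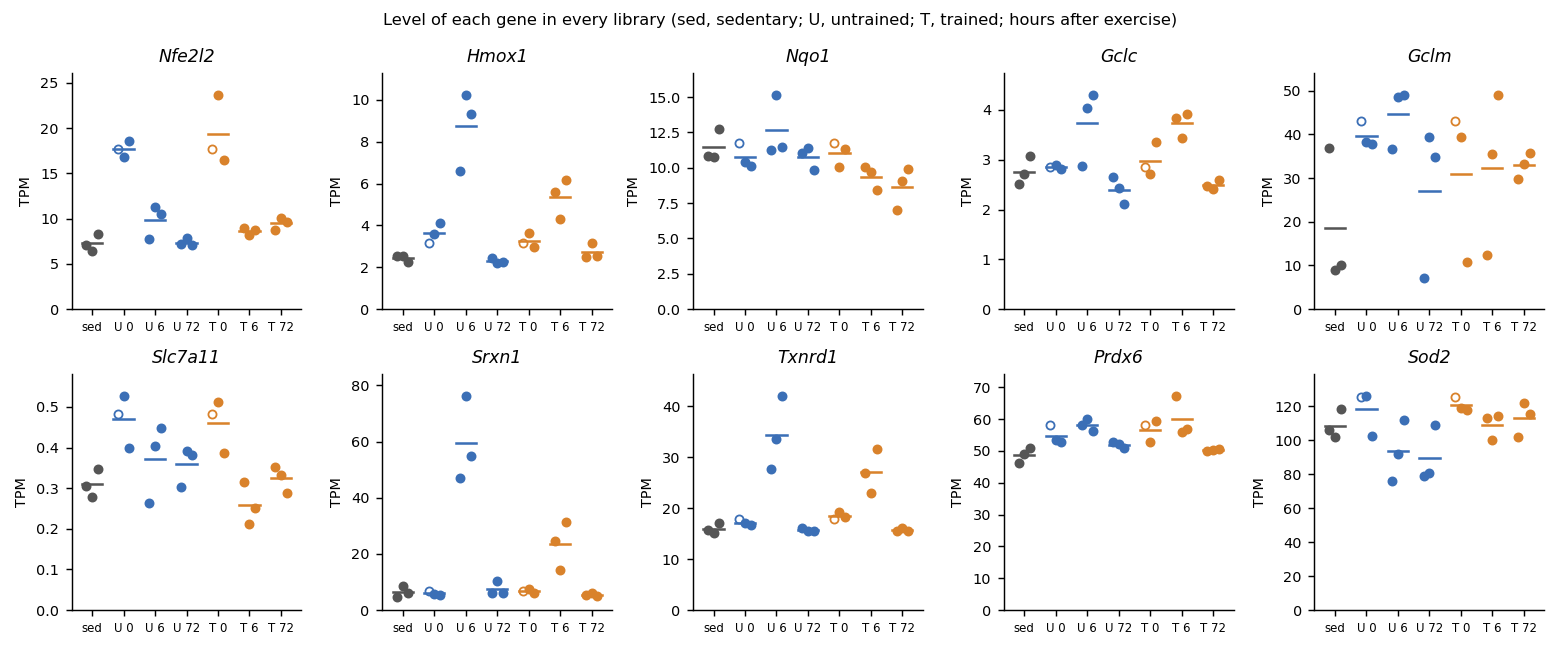
Level of each of the 10 genes in TPM (linear axis from 0, a scale of its own for each gene) in the 21 libraries by group, with each point 1 library, each line the group mean, and the open circles the library held by both 0 h groups. Nfe2l2 stands highest at 0 h, Srxn1, Txnrd1 and Hmox1 stand highest at 6 h and higher in untrained than in trained muscle on average, and Gclm splits within groups.

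At 0 h the transcript of NRF2 itself was higher in both exercised groups, while none of the target genes was called. Nfe2l2 was at 7.12, 6.38 and 8.29 TPM in the sedentary libraries. It was at 17.7, 16.8 and 18.6 TPM in untrained muscle at 0 h, and at 17.7, 23.7 and 16.5 TPM in trained muscle. Every 0 h library lay above every sedentary one, and the untrained and trained ranges overlapped. On the log2(TPM + 0.5) scale, on which all fold changes are given, Nfe2l2 rose by 1.23 in untrained muscle (SE 0.14, adjusted p = 1.82e-05, limma with Benjamini-Hochberg adjustment over the 11819 genes). The rise in trained muscle was 1.34 (SE 0.14, adjusted p = 7.40e-06, limma, Benjamini-Hochberg). Without the shared library the differences were 1.23 (adjusted p = 0.000290, limma, Benjamini-Hochberg) and 1.39 (adjusted p = 9.56e-05, limma, Benjamini-Hochberg).

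Genes counted as called had an adjusted p below 0.05 together with a change of 1.5-fold or more, up or down. By this rule 1 of the 9 genes tested was called higher and 0 lower at 0 h in each exercised group, and the same counts held without the shared library. Of all genes tested, 2.97% were called higher and 0.618% lower in untrained muscle at 0 h (2.50% and 0.457% without the shared library). In trained muscle 3.39% were called higher and 0.347% lower (3.11% and 0.161% without it). The median log2 difference of the 9 genes was 0.12 in untrained muscle and 0.20 in trained muscle, beside 0.10 and 0.13 over all genes tested. The mitochondrial genome took 37.7 to 40.6% of the TPM at 0 h and 42.2 to 46.9% in sedentary muscle. Rescaling without it and the 10 highest genes moved the median of all genes by -0.15 and -0.17, and the log2 rise of Nfe2l2 was then 1.07 in untrained and 1.16 in trained muscle, still called.

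Maff and Mafk, 2 of the 3 small MAF partners of NRF2, were also called higher at 0 h. Maff was at 0.696, 0.864 and 0.825 TPM in sedentary muscle, 6.68, 5.12 and 5.28 TPM in untrained and 6.68, 8.76 and 7.76 TPM in trained muscle at 0 h. Its log2 rise was 2.25 in untrained (adjusted p = 2.82e-07, limma, Benjamini-Hochberg) and 2.66 in trained muscle (adjusted p = 4.51e-08, limma, Benjamini-Hochberg). Mafk was at 4.69, 4.12 and 4.67 TPM in sedentary muscle, 10.6, 10.2 and 11.4 TPM in untrained and 10.6, 12.5 and 11.2 TPM in trained muscle at 0 h. It rose by 1.17 and 1.25 on the log2 scale (adjusted p = 0.000115 and 5.43e-05, limma, Benjamini-Hochberg). For neither gene did the 0 h libraries overlap the sedentary ones. Without the shared library the rises were 2.14 and 2.76 for Maff and 1.18 and 1.31 for Mafk, and all 4 were called. Mafg, the other small MAF, was not called, with log2 differences of 0.18 (adjusted p = 0.363, limma, Benjamini-Hochberg) and 0.31 (adjusted p = 0.0989, limma, Benjamini-Hochberg), and 0.20 and 0.39 without the shared library. The other regulators of the list were not called at 0 h either, among them Keap1, its ubiquitin ligase partners Cul3 and Rbx1, and the repressor Bach1.

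Hmox1 and Prdx6 were higher in every 0 h library than in any sedentary one without being called. Hmox1 was at 3.16, 3.60 and 4.13 TPM in untrained and 3.16, 3.62 and 2.97 TPM in trained muscle, against 2.54, 2.56 and 2.27 TPM in sedentary muscle. The log2 differences of Hmox1 were 0.48 (adjusted p = 0.0599, limma, Benjamini-Hochberg) and 0.34 (adjusted p = 0.150, limma, Benjamini-Hochberg), and without the shared library 0.56 and 0.36. The summed TPM of 10 macrophage markers was also higher in these libraries, at 58.8 to 65.9 against 46.7 to 51.3 in sedentary muscle, with 0 of the 9 markers tested called, and its part in the level of Hmox1 was not tested. For Prdx6 the log2 differences were 0.17 (95% interval 0.02 to 0.31) and 0.21 (0.07 to 0.36), and 0.12 and 0.20 without the shared library. Both genes depended on the processing. Over the alternative scalings, filters and models, the lowest untrained and trained differences were -0.006 and 0.026 for Prdx6 and 0.33 and 0.18 for Hmox1. The differences of Srxn1 (-0.04 and 0.11), Txnrd1 (0.10 and 0.20), Nqo1 (-0.08 and -0.05), Gclc (0.05 and 0.09) and Sod2 (0.12 and 0.16) had intervals that included 0, and without the shared library those of these 5 genes lay between -0.15 and 0.23. Trained and untrained muscle did not differ by a call in any of the 9 genes at 0 h, 0 had an unadjusted p below 0.05 in limma (143 of all 11819 genes had), and of all genes 0% were called in either direction, with the shared library or without. For Nfe2l2 the log2 difference of trained to untrained was 0.11 (95% interval -0.18 to 0.40), and 0.16 without the shared library.

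At 6 h the target genes Srxn1, Txnrd1 and Hmox1 were called higher in both exercised groups, and Nfe2l2 was not called in either. Srxn1, the sulfiredoxin that restores over-oxidised peroxiredoxins, was at 4.49, 8.54 and 6.11 TPM in sedentary muscle. It was at 47.2, 76.4 and 54.8 TPM in untrained muscle and at 24.8, 14.3 and 31.4 TPM in trained muscle at 6 h. The 3 groups did not overlap, with trained muscle between the others. The log2 rise over sedentary was 3.14 in untrained muscle (SE 0.27, adjusted p = 1.85e-06, limma, Benjamini-Hochberg), rank 35 by size of rise among all genes tested. In trained muscle it was 1.77 (SE 0.27, adjusted p = 0.000684, limma, Benjamini-Hochberg), rank 117.

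Txnrd1, which keeps thioredoxin reduced with NADPH, was at 15.7, 15.1 and 17.1 TPM in sedentary muscle. It was at 27.7, 33.5 and 42.1 TPM in untrained and at 26.9, 23.1 and 31.5 TPM in trained muscle at 6 h. All 6 h libraries lay above the sedentary ones, and the 2 exercised groups overlapped. The log2 rises were 1.07 (SE 0.12, adjusted p = 2.11e-05, limma, Benjamini-Hochberg) and 0.74 (SE 0.12, adjusted p = 0.000883, limma, Benjamini-Hochberg). The lncRNA Gm38560 runs antisense through Txnrd1 at 8.07 to 11.5 TPM but shares 0 exon bases with it in the GENCODE annotation.

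Hmox1, which breaks down haem to iron, biliverdin and carbon monoxide, was at 6.61, 10.2 and 9.34 TPM in untrained and 5.62, 4.29 and 6.18 TPM in trained muscle at 6 h. Both groups lay above all sedentary libraries, and every trained library lay below every untrained one. The log2 rises were 1.62 (SE 0.15, adjusted p = 2.61e-06, limma, Benjamini-Hochberg) and 0.98 (SE 0.15, adjusted p = 0.000570, limma, Benjamini-Hochberg). Macrophages also express Hmox1. The summed macrophage markers were at 46.7 to 51.3 TPM in sedentary muscle, 41.2, 87.3 and 68.8 in untrained replicates 1, 2 and 3 at 6 h, and 38.9, 40.4 and 57.1 in the trained ones. Of the 9 macrophage markers tested, Cd68 and Csf1r were called higher in untrained muscle at 6 h, and both were called lower in trained than in untrained muscle. In all 3 untrained 6 h libraries both markers were above every sedentary one, with Cd68 at 4.01 TPM or more against at most 1.60 TPM and Csf1r at 3.38 TPM or more against at most 2.87 TPM. Every other macrophage marker had 1 untrained 6 h library below all sedentary ones, and 1 or 2 above. The summed markers at 72 h were at 66.5 to 72.8 TPM in untrained muscle, with Hmox1 at 2.20 to 2.44 TPM. In trained muscle at 72 h they were at 49.3 to 56.7 TPM, with Hmox1 at 2.51 to 3.16 TPM. Of the 9 markers tested, 1 was called higher in untrained muscle at 72 h than in sedentary muscle, beside 0.00846% of all genes. There 5 of the 9 had an unadjusted p below 0.05 in limma, as had 682 of all 11819 genes. Between trained and untrained muscle at 72 h, 1 marker was called lower, beside 0.186% of all genes. The part of macrophages in the levels of Hmox1 and Srxn1 was not tested.

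In all, 3 of the 9 genes tested were called higher and 0 lower in each exercised group at 6 h. Over all genes tested, 3.53% were called higher and 0.888% lower in untrained muscle, and 2.41% higher and 1.44% lower in trained muscle. The median log2 difference of the 9 genes was 0.41 in untrained muscle and 0.38 in trained muscle, beside 0.01 and -0.01 over all genes. Leaving out any 1 library of the groups compared left 3 of the 9 genes called in both comparisons.

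The 6 other tested genes were not called at 6 h. Prdx6 was at 58.3, 59.99 and 56.2 TPM in untrained and 67.4, 56.0 and 56.7 TPM in trained muscle, all above the sedentary 46.3, 49.2 and 50.8 TPM. Its log2 differences of 0.25 and 0.29 had adjusted p of 0.0277 and 0.0115 (limma, Benjamini-Hochberg) but lay below the fold threshold. Gclc differed by 0.37 in untrained muscle (adjusted p = 0.0539, limma, Benjamini-Hochberg), at 2.88 to 4.31 TPM, with the lowest library inside the sedentary range. In trained muscle it differed by 0.38 (adjusted p = 0.0437, limma, Benjamini-Hochberg), at 3.44 to 3.92 TPM, also below the fold threshold. With the shared 0 h library left out of the model this adjusted p was 0.0620 (limma, Benjamini-Hochberg). Nfe2l2 was at 7.72, 11.3 and 10.5 TPM in untrained and 9.01, 8.19 and 8.78 TPM in trained muscle, with ranges that overlapped the sedentary one. Sod2 was at 76.1 to 112 TPM in untrained and 99.96 to 114 TPM in trained muscle, with log2 differences of -0.23 (95% interval -0.52 to 0.06) and 0.01 (-0.29 to 0.30). Nqo1, often used as a reporter gene of NRF2, was at 11.3, 15.2 and 11.5 TPM in untrained and 10.02, 9.67 and 8.41 TPM in trained muscle, where every library was below every sedentary one (log2 difference -0.27, adjusted p = 0.207, limma, Benjamini-Hochberg).

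**Figure D2:**
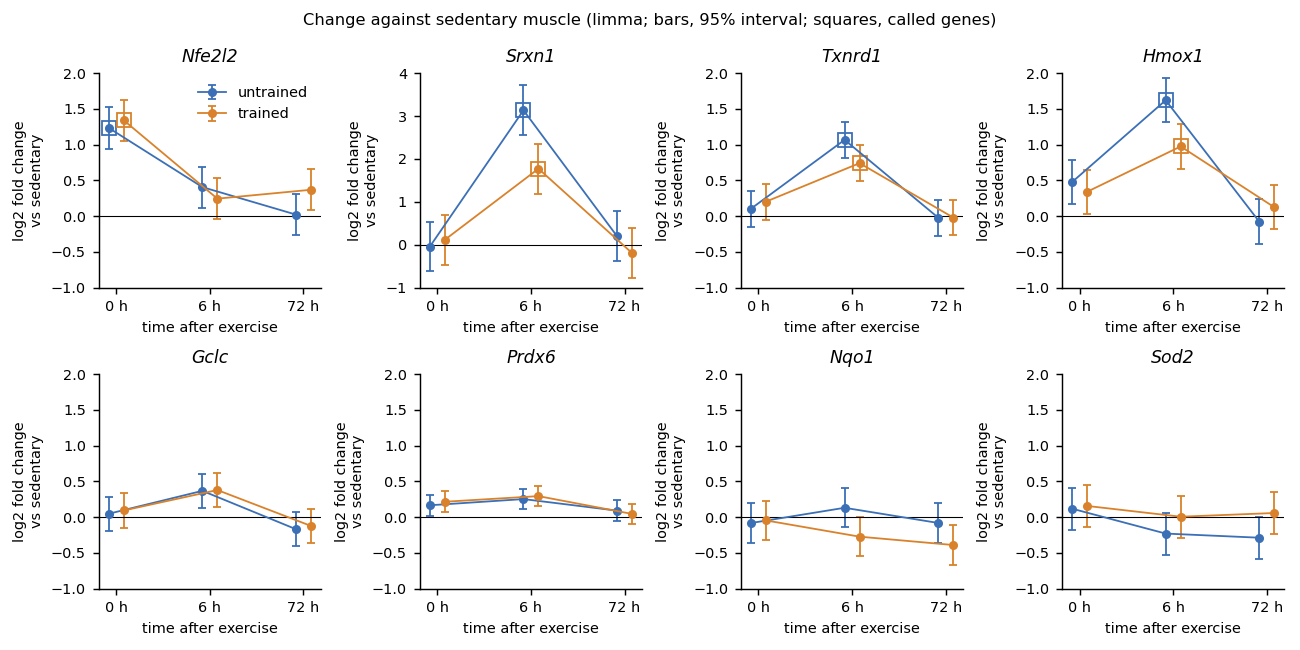
Log2 fold change against sedentary muscle (limma, vertical axis, with a longer range for Srxn1) at each time after the bout (horizontal axis in h, evenly spaced and not to scale) in untrained and trained muscle, with 95% intervals as bars and squares around called values. Nfe2l2 was called at 0 h, and Srxn1, Txnrd1 and Hmox1 at 6 h, where untrained values (3.14, 1.07 and 1.62) were above trained ones (1.77, 0.74 and 0.98), a difference called for Srxn1 and Hmox1.

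Trained and untrained muscle were compared directly at 6 h. With no trained group at rest, a different response to the bout and a different level before it cannot be told apart. Nor can either be told apart from a different amount of work in the bout, which ran to exhaustion. Srxn1 was lower in trained muscle by a log2 difference of -1.36 (SE 0.27, 95% interval -1.94 to -0.78, adjusted p = 0.00847, limma, Benjamini-Hochberg), in 3 of 3 libraries. Hmox1 was lower by -0.65 (SE 0.15, 95% interval -0.96 to -0.34, adjusted p = 0.0175, limma, Benjamini-Hochberg), also in 3 of 3 libraries. With the shared 0 h library left out of the model, Srxn1 and Hmox1 stayed called (adjusted p = 0.0158 and 0.0251, limma, Benjamini-Hochberg). For Txnrd1 the difference was -0.33 (95% interval -0.58 to -0.08, adjusted p = 0.142, limma, Benjamini-Hochberg) and for Nqo1 -0.40 (95% interval -0.68 to -0.13, adjusted p = 0.0928, limma, Benjamini-Hochberg), so neither was called. Gclc, Prdx6 and Nfe2l2 had overlapping groups, with intervals of -0.23 to 0.25, -0.10 to 0.19 and -0.45 to 0.13. Of the 9 genes, 2 were called lower and 0 higher, beside 1.46% and 0.558% of all genes tested, and 4 had an unadjusted p below 0.05 in limma, as had 2166 of all 11819 genes.

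The count of 2 rested on single libraries. It became 0 without untrained 6 h replicate 2, the library with the highest Srxn1, Hmox1 and macrophage values of its group, where Srxn1 was at -1.17 (adjusted p = 0.0555, limma, Benjamini-Hochberg) and Hmox1 at -0.53 (adjusted p = 0.0985, limma, Benjamini-Hochberg). It became 1, with Srxn1 kept, without untrained 6 h replicate 3 (Hmox1 adjusted p = 0.0670, limma, Benjamini-Hochberg) or without trained 6 h replicate 2 (Hmox1 adjusted p = 0.0819, limma, Benjamini-Hochberg). In a model of these 2 groups alone it was 0. Rescaling without the 10 highest genes and the mitochondrial genome, which took 40.6 to 43.7% of the TPM in untrained and 45.7 to 47.0% in trained muscle at 6 h, gave 1, and 113 genes higher and 133 lower over all genes in place of 66 and 172.

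At 72 h 0 of the 9 genes were called, and the levels of the 3 target genes were close to those of sedentary muscle. Srxn1 was at 5.92, 10.2 and 6.02 TPM in untrained and 5.27, 5.92 and 4.86 TPM in trained muscle. Hmox1 was at 2.44, 2.20 and 2.26 TPM in untrained and 2.51, 3.16 and 2.53 TPM in trained muscle. Txnrd1 lay between 15.5 and 16.1 TPM in all 6 libraries, inside the sedentary range. In untrained muscle 0 of the 9 genes had an unadjusted p below 0.05 in limma (682 of all 11819 genes had), and of all genes tested 0.00846% were called higher and 0% lower. In trained muscle 2 genes had an unadjusted p below 0.05 in limma, Nfe2l2 and Nqo1, as had 1379 of all 11819 genes, and of all genes 0.0592% were called higher and 0.110% lower.

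Nfe2l2 and Nqo1 lay on opposite sides of the sedentary libraries in trained muscle at 72 h, without being called. Nfe2l2 was at 8.77, 10.05 and 9.65 TPM, above every sedentary library and above the 7.14, 7.85 and 7.05 TPM of untrained muscle at 72 h. Its log2 difference was 0.37 to sedentary (adjusted p = 0.294, limma, Benjamini-Hochberg) and 0.35 to untrained muscle (adjusted p = 0.245, limma, Benjamini-Hochberg). Nqo1 was at 7.002, 9.09 and 9.90 TPM, below every sedentary library (log2 difference -0.39, adjusted p = 0.233, limma, Benjamini-Hochberg). Between trained and untrained muscle at 72 h, 0 of the 9 genes were called, 3 had an unadjusted p below 0.05 in limma (Nfe2l2, Nqo1 and Sod2), as had 1769 of all 11819 genes, and of all genes 0.0592% were called higher and 0.186% lower. Sod2 was at 102, 122 and 115 TPM in trained and 79.0, 80.9 and 109 TPM in untrained muscle, which overlap. Gclc lay between 2.11 and 2.66 TPM and Prdx6 between 49.99 and 52.7 TPM in the 6 libraries.

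Gclm had the widest spread within groups of the 10 genes and was not called in any comparison. Of the 20 distinct libraries, 5 held between 7.06 and 12.4 TPM and 15 between 29.7 and 49.1 TPM, with none between. The low libraries were sedentary replicates 2 and 3, untrained 72 h replicate 1, trained 0 h replicate 3 and trained 6 h replicate 1. Within untrained muscle at 72 h the highest library had 5.59 times the level of the lowest, while the largest such ratio among the other 9 genes was 2.20, for Srxn1 in trained muscle at 6 h. With 2 of the 3 sedentary libraries low, the log2 differences to sedentary were positive throughout, up to 1.53 in untrained muscle at 6 h (SE 0.67, adjusted p = 0.190, limma, Benjamini-Hochberg). Without sedentary replicate 1, the high one of the 3, this difference was 2.16, still not called.

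An antisense lncRNA, Gm17494 (chr3:122049607-122087369, minus strand), overlaps Gclm (chr3:122039126-122065061, plus strand) on GRCm39. In the GENCODE annotation the exons of the 2 genes share 869 bases, 10.9% of the 7956 exon bases of Gclm. The library kit does not mark strand, so reads of the 2 genes cannot be told apart there. Gm17494 was at 27.5 to 48.6 TPM and did not split. The ratio of Gclm to Gm17494 was 0.208 to 0.362 in the 5 low libraries and 0.980 to 1.39 in the 15 others. The part of the overlap in the levels of Gclm was not tested.

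**Figure D3:**
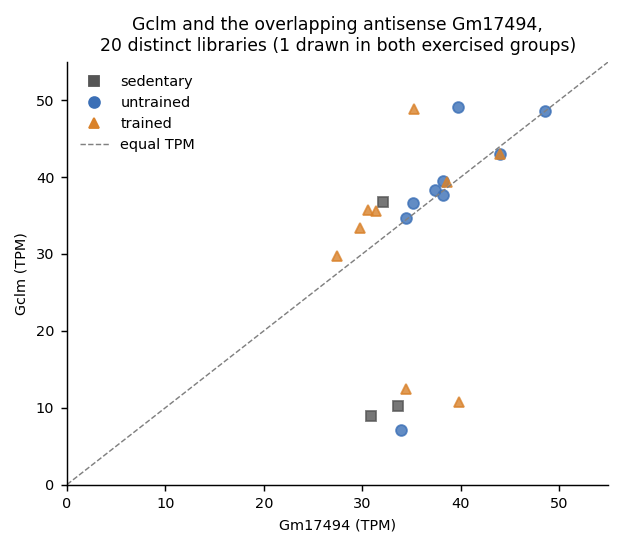
Gclm against the antisense Gm17494, both in TPM on linear axes from 0, with 1 point per library and the line of equal levels dashed. In 15 distinct libraries Gclm lay near or above the line, and in 5 from 4 groups it lay between 7.06 and 12.4 TPM at similar Gm17494.

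Slc7a11 was listed at 0.212 to 0.528 TPM in every library and was too low to be tested. Its heavy-chain partner Slc3a2, which it shares with other amino acid transporters, was at 5.97, 7.32 and 7.34 TPM in sedentary muscle. At 0 h Slc3a2 was at 13.6, 13.2 and 11.7 TPM in untrained and 13.6, 14.3 and 9.18 TPM in trained muscle. All 0 h libraries were higher than the sedentary ones for Slc3a2, with log2 rises of 0.86 (adjusted p = 0.00642, limma, Benjamini-Hochberg) and 0.78 (adjusted p = 0.0117, limma, Benjamini-Hochberg). Without the shared library the difference in untrained muscle was 0.82 (adjusted p = 0.0379, limma, Benjamini-Hochberg), still called, and the call in trained muscle was lost (0.70, adjusted p = 0.0644, limma, Benjamini-Hochberg). Slc7a11 itself was at 0.398 to 0.528 TPM in untrained and 0.387 to 0.513 TPM in trained muscle at 0 h, above its sedentary 0.279 to 0.348 TPM.

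Beyond the 10 genes, 63 others of the pathway were counted in 7 lists, and 59 of them were tested. At 0 h, 3 were called higher and 1 lower in untrained muscle (3 and 0 without the shared library), and 4 higher and 0 lower in trained muscle (3 and 0), where 2.97% and 0.618% of all genes tested were called in untrained and 3.39% and 0.347% in trained muscle. At 6 h, 3 were called higher and 1 lower in untrained muscle, beside 3.53% and 0.888% of all genes. In trained muscle 1 was called higher and 2 lower, beside 2.41% and 1.44% of all genes. At 72 h the counts were 0 and 0 in untrained muscle, beside 0.00846% and 0% of all genes. They were 0 higher and 1 lower in trained muscle, beside 0.0592% and 0.110%. In the untrained 72 h comparison, 4 of the 59 genes and 682 of all 11819 genes had an unadjusted p below 0.05 in limma. In the trained one 10 of the 59 and 1379 of all 11819 had. Over the thioredoxins and other peroxiredoxins (9 genes) and the other superoxide and peroxide enzymes Sod1, Sod3 and Cat, 0 were called in any of the 9 comparisons. With so few genes, 0 calls is near the shares of all genes. Of the 9 thioredoxins and peroxiredoxins, 4 in untrained and 5 in trained muscle at 0 h had an unadjusted p below 0.05 in limma. The same held for 2860 and 3217 of all 11819 genes.

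The 3 genes called higher and the 1 called lower of the 59 in untrained muscle at 6 h came from different lists. These counts are near the shares of all genes tested (3.53% and 0.888%). Sqstm1, the autophagy receptor that binds KEAP1, was at 263, 319 and 301 TPM against 210, 194 and 145 TPM in sedentary muscle (log2 rise 0.70, adjusted p = 0.0189, limma, Benjamini-Hochberg). Ftl1, the ferritin light chain that stores iron, rose by 0.72 (adjusted p = 0.000895, limma, Benjamini-Hochberg), and Osgin1, an oxidative stress response gene, by 0.93 (adjusted p = 0.0149, limma, Benjamini-Hochberg). Idh2, the mitochondrial isocitrate dehydrogenase that makes NADPH, was lower at 79.8, 57.2 and 59.2 TPM against 100, 119 and 136 TPM (log2 difference -0.86, adjusted p = 0.00217, limma, Benjamini-Hochberg). All 4 genes separated the 3 untrained from the 3 sedentary libraries. Idh2 was also lower at 0 h in untrained muscle (-0.59, adjusted p = 0.0317, limma, Benjamini-Hochberg), a call lost without the shared library (-0.60, adjusted p = 0.102, limma, Benjamini-Hochberg). The count of 4 became 7 without untrained 6 h replicate 1 and 2 without replicate 2, without replicate 3 or without a filter on expression, and 0 in a model of the 2 groups alone.

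In trained muscle at 6 h, 1 gene was called higher and 2 lower. Idh1, the cytosolic counterpart of Idh2, was at 7.88, 8.21 and 9.85 TPM at 6 h against 5.24, 5.36 and 5.83 TPM in sedentary muscle (log2 rise 0.61, adjusted p = 0.0237, limma, Benjamini-Hochberg). Gpx3, the secreted glutathione peroxidase, was at 68.3, 67.9 and 67.3 TPM against 117, 110 and 111 TPM (-0.73, adjusted p = 0.00198, limma, Benjamini-Hochberg). Slc40a1, the iron exporter ferroportin, was at 4.40, 5.34 and 6.09 TPM against 9.05, 10.9 and 10.2 TPM (-0.88, adjusted p = 0.000743, limma, Benjamini-Hochberg). None of these groups overlapped. Slc40a1 was called lower at 72 h too (-0.70, adjusted p = 0.0498, limma, Benjamini-Hochberg), a call at the edge of the threshold that was lost without any 1 of the sedentary libraries and without trained 72 h replicate 1 or replicate 2. Ugdh, which makes the substrate for glucuronidation, was called higher in trained muscle at 0 h (0.78, adjusted p = 0.0256, limma, Benjamini-Hochberg), and without the shared library (0.88, adjusted p = 0.0461, limma, Benjamini-Hochberg).

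Directly compared at 6 h, Idh1 was higher in trained than in untrained muscle (0.59, adjusted p = 0.0472, limma, Benjamini-Hochberg), and Gpx3 (-0.61, adjusted p = 0.0127, limma, Benjamini-Hochberg) and Maff (-0.63, adjusted p = 0.0404, limma, Benjamini-Hochberg) were lower, each in 3 of 3 libraries. This count of 3 became 0 without untrained 6 h replicate 2 or in a model of the 2 groups alone. It became 1 without trained 6 h replicate 2, with a pseudocount of 1 or without a filter on expression, and the call of Idh1 was lost when the shared 0 h library was left out of the model (adjusted p = 0.0542, limma, Benjamini-Hochberg). Between trained and untrained muscle, 0 of the 59 genes were called at 0 h and 0 at 72 h, where 1 and 10 had an unadjusted p below 0.05 in limma, as had 143 and 1769 of all 11819 genes.

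**Figure D4:**
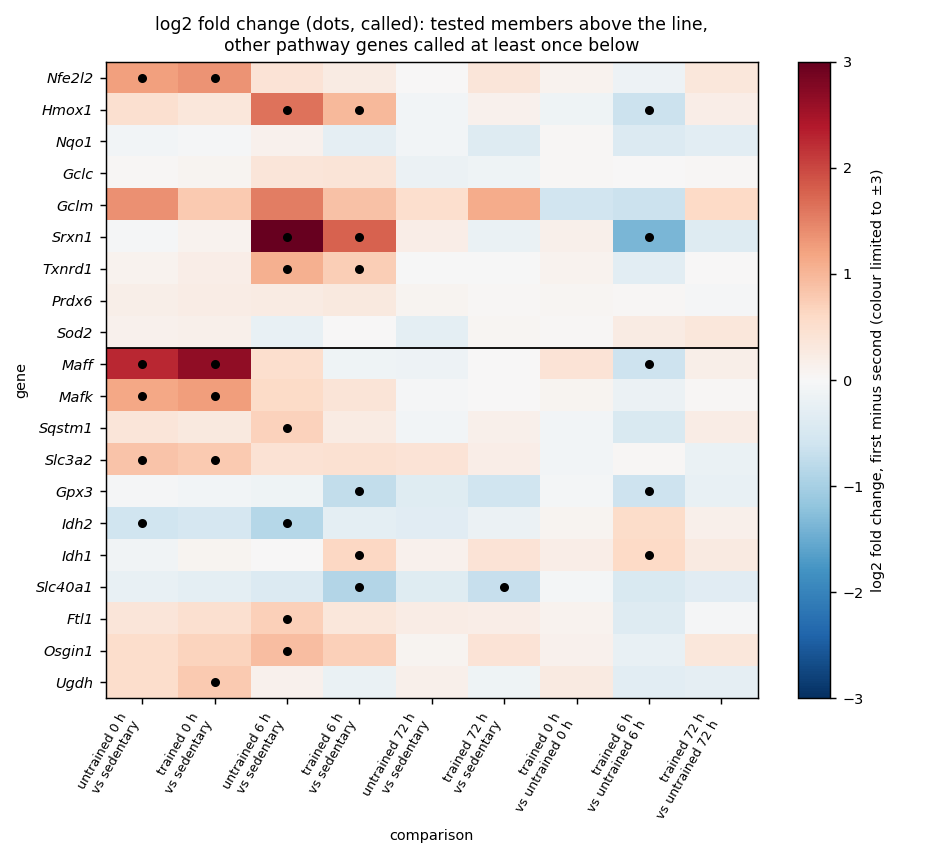
Log2 fold change (colour, first group minus second, limited to 3 in either direction) of the 9 tested genes and of the 11 other pathway genes called at least once, in the 9 comparisons (columns), with dots on called values. Nfe2l2, Mafk and Slc3a2 have dots at 0 h only, and Srxn1, Txnrd1 and Hmox1 at 6 h only.

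Genes that mark other cell types moved in some of the same comparisons. Summed endothelial markers were at 41.1 to 62.8 TPM over all libraries, and Cldn5 was called lower in untrained muscle at 6 h. The means of Cdh5, Kdr and Tek were also below the sedentary ones there. Those of Pecam1 (15.0 against 13.2 TPM) and Emcn (6.11 against 5.59 TPM) were above. Kdr was called lower in both 0 h groups, and both calls were lost without the shared library (-0.63, adjusted p = 0.0892, and -0.53, adjusted p = 0.130, limma, Benjamini-Hochberg). Cldn5 was not called at 0 h, with means of 11.7 and 11.8 TPM against 5.94 TPM (9.47 and 9.67 TPM without the shared library). The other endothelial markers had means below the sedentary ones at 0 h. Summed fibro-adipogenic markers were at 233 to 273 TPM in sedentary muscle and 138 to 377 TPM in untrained muscle at 6 h, and Col1a1 and Col3a1 were called lower in trained muscle at 6 h. Of these 2 calls, 1 was left when the shared 0 h library was taken out of the model. Pdgfra and Lum also had lower means in trained muscle at 6 h, and Dcn a higher one (213 against 207 TPM). Haemoglobin genes and Alas2 summed to 225 to 805 TPM and adipocyte markers to 22.9 to 126 TPM, with 0 called. The 5 neutrophil markers summed to at most 1.92 TPM and were not tested, and Ly6g was listed at 0 in all libraries of 5 groups. Their part in the levels of the NRF2 genes was not tested.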

How the data were processed

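Quadriceps RNA was sequenced as paired ends from TruSeq v2 libraries. Before deposit, the authors aligned reads to GRCm39 with STAR 2.7.9 and made gene levels with salmon 1.5.0, deposited as TPM. The annotation release is not given in the sources used here. TPM were transformed to log2(TPM + 0.5). Genes averaging 1 TPM or more across the 21 libraries (11819) entered 1 limma model (version 3.58.1, R 4.3.3) with 7 group means, a variance trend and 14 residual degrees of freedom. P values were adjusted over all tested genes within each of 9 comparisons (Benjamini-Hochberg). Calls needed an adjusted p below 0.05 and a log2 difference of at least 0.585, the study's thresholds. The procedure was tested on simulated data. All 10 genes are named; of the other pathway genes, up to 4 called ones per list, by largest difference. The genes, lists and markers were chosen with earlier results of these data known. Exon overlaps came from GENCODE and promoter windows from RefSeq. Alternatives were other pseudocounts, filters, scalings and models, no fold threshold, a replicate block and leaving out libraries. Figures were drawn with matplotlib 3.10.9.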

Additional observations from a re-analysis of the deposited data

Results flagged for a closer look

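Srxn1 and Hmox1 stood out because their levels at 6 h differed between trained and untrained muscle by a test of the difference itself. With no trained group at rest, a different response to the bout and a different level before it cannot be told apart. Nor can either be told apart from a different amount of work in the bout. The log2 difference of trained to untrained was -1.36 for Srxn1 (adjusted p = 0.00847, limma, Benjamini-Hochberg) and -0.65 for Hmox1 (adjusted p = 0.0175, limma, Benjamini-Hochberg), and both genes were lower in 3 of 3 trained libraries. Both calls were lost without untrained 6 h replicate 2, and that of Hmox1 also without untrained 6 h replicate 3 or trained 6 h replicate 2. Apart from leaving out libraries, no test for outlying libraries was run, with 3 libraries in each group.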

How the results depend on the processing

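Among the 9 tested genes the counts of calls at 0 h (1 in each exercised group, 0 between them) and at 72 h (0 throughout) did not move under any alternative. At 6 h in untrained muscle the count of 3 stayed between 2 and 4. In trained muscle at 6 h it was 5 without a fold threshold, where Gclc and Prdx6 were added. The adjusted p of Gclc was 0.0620 when the shared 0 h library was left out (limma, Benjamini-Hochberg). The count in trained muscle was 2 with a mean of at least 5 TPM, which drops Hmox1. In a model of the 2 groups alone it was also 2 (Srxn1 adjusted p = 0.0672, limma, Benjamini-Hochberg). Between trained and untrained muscle at 6 h the count of 2 became 1 without a filter (Hmox1 adjusted p = 0.0655, limma, Benjamini-Hochberg), 1 with a mean of at least 5 TPM, 1 after rescaling (Hmox1 at -0.56, under the fold threshold) and 0 with only the groups compared. Leaving out each library gave between 0 and 2 there, and 1 at 0 h, 3 at 6 h and 0 at 72 h against sedentary muscle. Apart from these, the cause was not tested. No direction of a called gene was reversed.

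Replicate numbers were not treated as pairs. In every comparison but trained with untrained at 0 h, at least 1 pair of deviations correlated at 0.1 or less. In that one the first pair (0.69) is the shared library, and replicates 2 and 3 correlated at 0.132 and 0.134. So few pairs cannot settle whether the samples were paired. The replicate block left every count of the 9 genes as it was (1 at 0 h, 3 at 6 h, 2 between trained and untrained at 6 h) and took the call of Slc40a1 at 72 h from 1 to 0. Rescaling also moved the split of calls over all genes, from 351 higher and 73 lower to 236 and 95 in untrained and from 401 and 41 to 252 and 70 in trained muscle at 0 h, from 417 and 105 to 347 and 150 in untrained muscle at 6 h, and at 72 h from 7 and 13 to 21 and 8 in trained muscle and from 7 and 22 to 13 and 16 between trained and untrained. Since the depth is unknown, low genes such as Slc7a11 have no estimate of their counting error.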
